A study of Mus musculus with 27 samples.

Results

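Krüppel-like factors are transcription factors that bind GC-rich and CACCC-containing DNA through a set of zinc fingers at the end of the protein. Their probe sets were taken as all those on the array whose platform gene symbol is Klf followed by a number. The rule gave 18 of 12488 probe sets, of 12 genes: Klf1, Klf2, Klf3, Klf4, Klf5, Klf6, Klf7, Klf9, Klf10, Klf12, Klf13 and Klf17. Klf3, Klf4, Klf9, Klf10, Klf13 and Klf17 had 2 probe sets each, and the other 6 genes had 1.

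The cells were NIH/3T3, an established line of mouse embryonic fibroblasts, with no transgene named in the labels. Cultures grown in 20% fetal bovine serum were stepped down to 5%, then given 15 µM forskolin for 2 h in serum-free medium, rinsed and held in serum-free medium. Forskolin activates adenylyl cyclase and so raises cyclic AMP. Separate flasks were harvested at the end of the pulse (0 h) and every 6 h to 48 h in 3 experiments, called biological replicates in the labels, which gave 9 groups of 3 samples on 27 Affymetrix mouse U74v2 arrays. Every group had therefore received the pulse and the serum withdrawal, and unpulsed cultures were not analysed here. Circadian expression after the pulse was the question of the series.

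The family falls into classes by the cofactors its members recruit. Klf1, Klf2, Klf4, Klf5, Klf6 and Klf7 are mainly activators, several of which bind histone acetyltransferases. Klf3 and Klf12 are repressors that bind the corepressor CtBP, and Klf9, Klf10 and Klf13 bind the Sin3 corepressor. In fibroblasts Klf4 is known for its induction on growth arrest and serum deprivation, Klf5 for its induction by serum and its promotion of proliferation, and Klf10 as an early gene of TGF-beta signalling. Several family genes, Klf9 and Klf10 among them, have circadian transcripts in mouse tissues.

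RefSeq promoter windows of 250 bases before to 50 bases after the gene start (assembly GRCm38.p6) were available for 10 of the 12 genes, the exceptions being Klf5 and Klf10. The 250 bases before the start are shown for the 4 genes with a probe set called at 48 h against 0 h and a window, because these carry the changes described below. Capitals mark TGACG, the short form of the cyclic AMP response element, or its reverse complement CGTCA, and the E-box CACGTG, and all else is in lower case, 5′ to 3′ on the strand of the gene. The windows lie at chr4:55532476-55532725 on the minus strand (Klf4), chr13:5861239-5861488 on the plus strand (Klf6), chr5:64803271-64803520 on the plus strand (Klf3) and chr7:63938916-63939165 on the minus strand (Klf13).
Klf4: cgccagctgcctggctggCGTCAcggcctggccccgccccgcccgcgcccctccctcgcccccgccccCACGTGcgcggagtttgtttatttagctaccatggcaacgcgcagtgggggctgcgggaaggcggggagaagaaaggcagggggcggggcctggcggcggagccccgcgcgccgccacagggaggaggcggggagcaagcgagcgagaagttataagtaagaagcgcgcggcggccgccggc
Klf6: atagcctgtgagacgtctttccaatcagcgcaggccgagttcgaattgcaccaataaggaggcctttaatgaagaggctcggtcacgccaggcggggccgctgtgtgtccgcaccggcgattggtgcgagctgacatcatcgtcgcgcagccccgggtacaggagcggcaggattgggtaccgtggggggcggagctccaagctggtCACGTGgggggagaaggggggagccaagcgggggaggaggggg
Klf3: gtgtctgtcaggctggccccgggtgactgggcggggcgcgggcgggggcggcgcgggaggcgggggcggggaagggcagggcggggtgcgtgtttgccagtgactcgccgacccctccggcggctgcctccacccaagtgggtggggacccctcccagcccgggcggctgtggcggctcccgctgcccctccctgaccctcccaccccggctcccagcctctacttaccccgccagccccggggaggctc
Klf13: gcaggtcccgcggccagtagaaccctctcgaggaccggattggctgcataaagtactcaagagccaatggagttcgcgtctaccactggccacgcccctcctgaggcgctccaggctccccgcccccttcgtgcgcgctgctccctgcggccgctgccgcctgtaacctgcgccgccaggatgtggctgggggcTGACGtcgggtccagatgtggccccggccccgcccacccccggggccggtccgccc

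TGACG was found on either strand in 6 of the 10 Klf windows of 300 bases, those of Klf2, Klf3, Klf4, Klf9, Klf12 and Klf13, and in 20.81% of the windows of all 32851 promoters. It began at −232 in Klf4 and at −56 in Klf13, counted from the gene start, and at 19 in Klf3, which is past the stretch shown. CACGTG was found in Klf4 at −182 and in Klf6 at −43, that is in 2 of 10 Klf windows and in 7.15% of all. The full response element TGACGTCA and the D-box TTATGTAA were in 0 of the 10, against 1.79% and 0.9376% of all windows. The family's own site CACCC was in 8 of 10 and the GC box GGGCGG in 7 of 10, against 57.52% and 35.66% of all. CACCC occurred 5 times and GGGCGG 6 times in the Klf3 window. These matches describe letters only, and binding was not measured.

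All levels are log2 of the deposited intensity plus 12.1, after quantile normalization, and a difference of 1 on this scale is a doubling for bright probe sets. The deposited arrays had trimmed means between 500.28 and 500.35, the mark of a scaling to 1 target, so a level is relative to all RNA on the array, and fewer cells that make a transcript cannot be told apart from less transcript per cell. All 10 fibroblast markers lay above the intensity filter on average, as did 1 of 5 epithelial markers (Cdh1), 1 of 4 endothelial markers (Kdr) and 2 of 5 blood markers on the array (Cd68 and Hba-a1). The summed intensity of the fibroblast markers was 110980 to 114422 at 48 h and 90187 to 106511 at 0 h, that of the epithelial markers 452.9 to 673 at 48 h and 513.7 to 688.4 at 0 h, that of the endothelial markers 184.6 to 340.9 at 48 h and 139.7 to 387.6 at 0 h, and that of the blood markers 330.7 to 349.2 at 48 h and 361.8 to 424.4 at 0 h. Their part in the Klf results was not tested. The ratio of the 3′ to the 5′ actin control was 1.11 to 1.73 over all arrays and 1.35 to 1.70 at 0 h. The 18 h and 30 h arrays of experiment 1 stood apart: the clock output gene Tef read 9.48 and 11.45 on them, where experiment 2 gave 11.08 and 9.82 and experiment 3 gave 11.02 and 10.40. Where leaving them out changed a call, the value without them is given below.

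Of the 18 probe sets, 12 of 9 genes had a mean log2 level above 6.77, the 40th percentile of the array, and were tested. The 6 below it were the only probe sets of Klf2, Klf7 and Klf12, the dimmer ones of Klf4 and Klf9, and 1 of the 2 of Klf17. At this threshold the Klf17 probe set 162265_r_at, with a mean of 6.77, lay just inside, and Klf7 (6.74) and the dimmer Klf9 probe set (6.68) lay just outside.

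Against the end of the pulse every call among the tested Klf probe sets was upward. Of the 12, 3 were higher at 6 h, 3 at each time from 12 h to 42 h and 4 at 48 h, and 0 were lower at any time at an adjusted p below 0.05 (limma). Over all 7453 probe sets the share called higher was 3.7, 4.6, 4.07, 4.08, 3.72, 3.85, 3.98 and 4.67% for the 8 later times in order, and the share called lower was 2.39, 3.73, 3.48, 2.84, 2.87, 3.48, 3.1 and 3.23%. The median change of the 12 lay between 0.53 at 36 h and 0.79 at 18 h, whereas the median over all probe sets lay between −0.004 and 0.015. The counts, here and with the block below, and the median are of probe sets and not of genes. Klf3, Klf10 and Klf13 entered with both of their probe sets, and their mean changes were positive at every later time. A median with 1 value per gene was not computed. All these comparisons share the 0 h arrays, so that a low 0 h array enters each of them.

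The experiment numbers paired the samples, and with the experiment as a block 6 probe sets were higher at each later time apart from 12 h, where 5 were. The share of all probe sets called higher was then 9.97, 10.9, 10.5, 10.6, 9.83, 9.54, 9.85 and 10.7% for the 8 later times in order. Klf6, the brighter Klf13 probe set and 1 or both Klf3 probe sets were in this count at every time. Of the Klf10 pair, 99603_g_at was in it at 6 h and 99602_at at 6 h and 12 h, and Klf4 was in it from 18 h on.

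**Figure D1:**
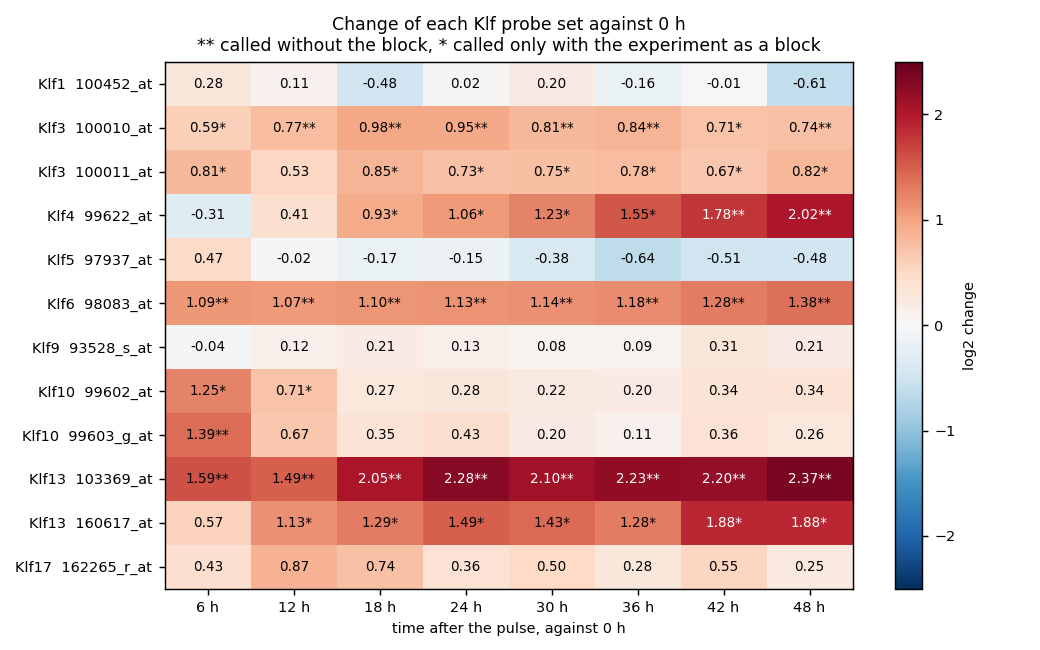
Colour and printed value give the mean log2 change against 0 h (3 arrays per time point) for each of the 12 tested Klf probe sets, with the later times from left to right, 2 asterisks for calls without the block and 1 for calls only with it. The row of Klf6 lies between 1.07 and 1.38, that of Klf4 climbs to 2.02 at 48 h, and those of Klf10 are highest at 6 h, at 1.25 and 1.39.

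Klf6, an activator first described as a gene induced on tissue injury, was about 2 times as high at 6 h as at the end of the pulse and stayed there. In experiment 1 it read 9.05 at 0 h and 10.17 at 6 h, then 10.25, 10.20, 10.06, 10.14, 10.32 and 10.18 at 6 h steps to 42 h, and 10.36 at 48 h. In experiment 2 it read 8.98 at 0 h and 9.75 at 6 h, then 9.72, 9.64, 9.97, 9.82, 9.71 and 9.91, and 9.98 at 48 h. In experiment 3 it read 8.66 at 0 h and 10.03 at 6 h, then 9.93, 10.15, 10.03, 10.13, 10.19 and 10.45, and 10.49 at 48 h. Every array of a later time lay above every 0 h array. The change was 1.09 ± 0.20 at 6 h (SE, n = 3 arrays per time, adjusted p = 0.000969), 1.13 ± 0.20 at 24 h (adjusted p = 0.000717) and 1.38 ± 0.20 at 48 h (adjusted p = 5.64e-05). As a fold on the log2(intensity + 12.1) scale these are 2.13, 2.18 and 2.61. Without experiment 3 the change was 0.93 at 6 h (adjusted p = 0.125), 0.99 at 24 h (adjusted p = 0.103) and 1.14 at 48 h (adjusted p = 0.0511). Here and below, fits with an experiment left out had no block, so level differences between the remaining experiments stayed in the spread.

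Klf4, which can arrest the cell cycle and is one of the reprogramming factors, was not called at 6 h and was higher late in the course. In experiment 1 it read 11.06 at 0 h and 10.35 at 6 h, then 11.22, 11.64, 11.60, 11.30, 11.90 and 12.04 at 6 h steps to 42 h, and 12.29 at 48 h. In experiment 2 it read 9.09 at both 0 h and 6 h, then 9.82, 9.97, 10.62, 10.85, 11.03 and 11.03, and 11.41 at 48 h. In experiment 3 it read 9.43 at 0 h and 9.22 at 6 h, then 9.76, 10.77, 10.55, 11.12, 11.30 and 11.86, and 11.95 at 48 h. The 0 h array of experiment 1 was the high one of its group, above every array of experiment 2 up to 42 h, so only the 48 h arrays all lay above those at 0 h. The change was −0.31 ± 0.49 at 6 h (adjusted p = 0.849), 1.06 ± 0.49 at 24 h (adjusted p = 0.245), 1.78 ± 0.49 at 42 h (adjusted p = 0.0268) and 2.02 ± 0.49 at 48 h (adjusted p = 0.0109). The 48 h change is 4.06-fold on the scale used and was positive in 3 of 3 experiments, at 1.23, 2.32 and 2.52. With the experiment as a block, which takes out the high level of experiment 1, Klf4 was higher from 18 h on, with an adjusted p = 0.00533 at 18 h, 0.00182 at 24 h and 9.34e-07 at 48 h. Without experiment 2 the 48 h change was 1.86 (adjusted p = 0.104), without experiment 3 it was 1.76 (adjusted p = 0.345), and without experiment 1 it was 2.45 (adjusted p = 0.000123), when the 24 h change of 1.34 passed too (adjusted p = 0.0144). At 42 h, leaving out experiment 2 gave 1.695 (adjusted p = 0.149), and leaving out experiment 3 gave 1.45 (adjusted p = 0.507).

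**Figure D2:**
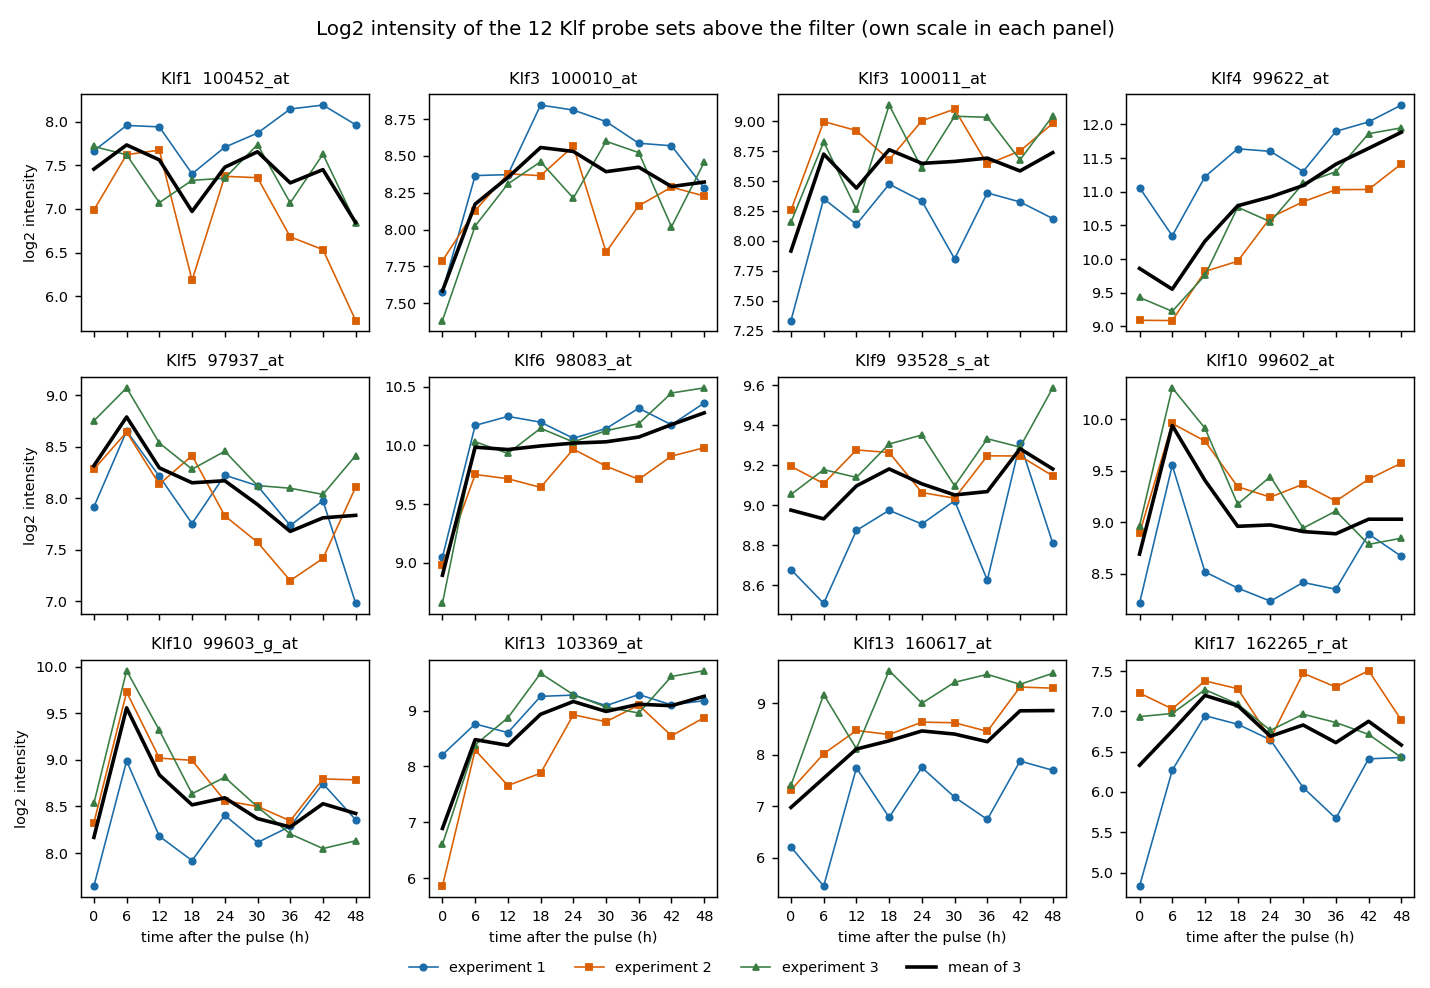
Each panel gives log2 intensity against hours after the pulse for 1 of the 12 tested Klf probe sets, with a thin line per experiment and a thick line for the mean of the 3. The Klf4 lines run upward from 6 h in all 3 experiments, experiment 1 being the highest at every time, and the 0 h point of Klf13 probe set 103369_at is 8.21 in experiment 1, against 5.86 and 6.60 in experiments 2 and 3.

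Klf5, the serum-inducible activator, was not called at any time against 0 h. It read 7.92, 8.28 and 8.75 in experiments 1 to 3 at 0 h, 8.65, 8.64 and 9.07 at 6 h, and 7.74, 7.20 and 8.10 at 36 h. The 6 h arrays overlapped the 0 h arrays, at 8.64 and 8.65 below 8.75, and so did the 36 h arrays. The change was 0.47 ± 0.32 at 6 h (adjusted p = 0.507) and −0.64 ± 0.32 at 36 h (adjusted p = 0.295), and neither passed with the block. Its fall over time is given with the linear trends below.

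The other activators were dim or not called. Klf7, which acts in neuron development, had a mean of 6.74, just under the filter, and was fitted with all 12422 probe sets that are not controls. It read 4.71, 5.35 and 6.16 at 0 h, 6.29, 7.004 and 7.87 at 6 h, and 7.03, 7.54 and 7.30 at 48 h. The 6 h and 48 h arrays all lay above the 0 h arrays, which were under the filter level. The change was 1.65 ± 0.62 at 6 h (adjusted p = 0.2004, and 0.00958 with the block) and 1.88 ± 0.62 at 48 h (adjusted p = 0.1003, and 0.00252 with the block). With the block Klf7 also passed at 18, 24, 36 and 42 h (adjusted p = 0.0105, 0.0492, 0.00538 and 0.0218). It then missed at 12 h and 30 h (adjusted p = 0.0563 and 0.0519). By the F test over time its adjusted p was 0.761, and 0.0440 with the block. Klf1, the erythroid factor that drives beta-globin, was not called at any time: its changes ran from −0.61 ± 0.48 at 48 h to 0.28 ± 0.48 at 6 h. Klf2, an activator of the endothelium and of resting T cells, read between 4.74 and 5.33 on all 27 arrays, and its change in the same unfiltered fit was −0.34 ± 0.20 at 6 h (adjusted p = 0.557).

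Of the CtBP-binding repressors, Klf3 was higher than at 0 h on both of its probe sets with the block and on 1 of them without it. Klf3 was found as a factor of erythroid cells and represses genes in many tissues. Its probe set 100010_at read 7.58, 7.79 and 7.38 in experiments 1 to 3 at 0 h, 8.81, 8.57 and 8.21 at 24 h, and 8.28, 8.23 and 8.46 at 48 h. Probe set 100011_at read 7.33, 8.26 and 8.16 at 0 h, 8.33, 9.005 and 8.61 at 24 h, and 8.19, 8.98 and 9.05 at 48 h. On 100010_at every later array lay above the 0 h arrays, and on 100011_at experiment 1 was low at every time point, so that its 48 h value of 8.19 lay below the 0 h value of 8.26 in experiment 2. The change of 100010_at was 0.95 ± 0.22 at 24 h (adjusted p = 0.00783), or 1.23, 0.78 and 0.83 in the single experiments, and it was 0.74 ± 0.22 at 48 h (adjusted p = 0.0371). It passed at every time other than 6 h (adjusted p = 0.126) and 42 h (adjusted p = 0.0501), and with the block at all 8. The change of 100011_at was 0.73 ± 0.33 at 24 h (adjusted p = 0.222, and 0.00813 with the block) and 0.82 ± 0.33 at 48 h (adjusted p = 0.146, and 0.00295 with the block), and with the block it missed only at 12 h (adjusted p = 0.0531). Leaving out any 1 experiment ended the call of 100010_at at 24 h, with changes of 0.82, 1.02 and 0.9958 without experiments 1, 2 and 3 (adjusted p = 0.0809, 0.0530 and 0.127), and at 48 h, with changes of 0.77, 0.88 and 0.57. Without the 18 h and 30 h arrays of experiment 1 the 30 h change of 100010_at was 0.64 (adjusted p = 0.137) and that of 100011_at was 1.16 (adjusted p = 0.0397), against 0.81 and 0.75 with them. The 42 h change of 100010_at then passed, at 0.71 (adjusted p = 0.0385).

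Klf12, the other CtBP-binding member, was dim, between 4.44 and 7.09 over the 27 arrays, and its changes ran from −1.10 ± 0.67 at 12 h (adjusted p = 0.533) to 0.02 ± 0.67 at 30 h.

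Among the Sin3-binding members Klf13 had the largest change of the 12 tested probe sets. Klf13 is known for driving the chemokine gene Ccl5 late in T cell activation. On probe set 103369_at it read 8.21 at 0 h and 8.76 at 6 h in experiment 1, then 8.61, 9.26, 9.28, 9.09, 9.29 and 9.10 at 6 h steps to 42 h, and 9.18 at 48 h. In experiment 2 it read 5.86 at 0 h and 8.29 at 6 h, then 7.66, 7.88, 8.93, 8.80, 9.10 and 8.55, and 8.88 at 48 h. In experiment 3 it read 6.60 at 0 h and 8.39 at 6 h, then 8.87, 9.67, 9.29, 9.07, 8.96 and 9.61, and 9.72 at 48 h. Experiment 1 was already high at 0 h, and the 12 h and 18 h arrays of experiment 2, at 7.66 and 7.88, lay below it, so that the groups overlapped at those times and did not at the others. The change was 1.59 ± 0.46 at 6 h (adjusted p = 0.0368), 2.28 ± 0.46 at 24 h (adjusted p = 0.0025) and 2.37 ± 0.46 at 48 h (adjusted p = 0.00149). The 48 h change was 0.97, 3.02 and 3.11 in experiments 1, 2 and 3, and since the 0 h values of experiments 2 and 3 lay below the filter level of 6.77 its size is uncertain. Without experiment 3 the change was 1.48 at 6 h (adjusted p = 0.345), 2.05 at 24 h (adjusted p = 0.141) and 1.98 at 48 h (adjusted p = 0.151), and without experiment 2 those at 6 h and 12 h were 1.16 (adjusted p = 0.195) and 1.32 (adjusted p = 0.104). Without the 18 h and 30 h arrays of experiment 1 the 12 h change of 1.495 had an adjusted p = 0.0543, against 0.0434 with them.

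The other Klf13 probe set, 160617_at, was not called without the block at any time. It read 7.70, 9.29 and 9.58 in experiments 1 to 3 at 48 h, against 6.21, 7.31 and 7.41 at 0 h. No 48 h array lay below a 0 h array, and each experiment moved up, by 1.49, 1.98 and 2.17. The change was 1.88 ± 0.84 (adjusted p = 0.205), and with the block the SE was 0.38 and the adjusted p = 0.000848. With the block this probe set was higher from 12 h on, with an adjusted p between 0.000848 and 0.0361. Without experiment 1, where it was low, it passed without the block at 48 h, at 2.12 (adjusted p = 0.012).

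Klf10, the TGF-beta-inducible early gene, was higher at 6 h and was not called from 18 h on. Probe set 99603_g_at read 8.99, 9.73 and 9.96 in experiments 1 to 3 at 6 h, against 7.64, 8.32 and 8.53 at 0 h, and 99602_at read 9.55, 9.96 and 10.30 at 6 h, against 8.21, 8.89 and 8.97 at 0 h. On both probe sets the 6 h arrays all lay above the 0 h arrays, and the arrays of experiment 1 were the lowest of each group. The change of 99603_g_at was 1.39 ± 0.31 (adjusted p = 0.00741), 1.34, 1.40 and 1.42 in the single experiments, and that of 99602_at was 1.25 ± 0.39 (adjusted p = 0.0582, and 0.000119 with the block). By 12 h the values were 8.18, 9.02 and 9.32 on 99603_g_at and 8.52, 9.79 and 9.91 on 99602_at. At that time both groups overlapped the 0 h arrays, and with the block 99602_at passed (adjusted p = 0.0138). From 18 h to 48 h the changes of both lay between 0.11 and 0.43 and none passed, with the block or without it. Without experiment 2 the 6 h change of 99603_g_at was 1.37 (adjusted p = 0.150) and without experiment 3 it was 1.35 (adjusted p = 0.121). For 99602_at the adjusted p was 0.0138 without experiment 1 and 0.0459 without its 18 h and 30 h arrays.

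Klf9, a gene induced by glucocorticoids and thyroid hormone in several tissues, was not called at any time. Its brighter probe set 93528_s_at read 8.81, 9.15 and 9.59 in experiments 1 to 3 at 48 h, against 8.68, 9.19 and 9.05 at 0 h, and the groups overlapped. Its changes ran from −0.04 ± 0.22 at 6 h to 0.31 ± 0.22 at 42 h (adjusted p = 0.512), the only time at which its arrays did not overlap those at 0 h. Klf17, known from germ cells and early embryos, had changes on 162265_r_at between 0.25 ± 0.50 at 48 h and 0.87 ± 0.50 at 12 h (adjusted p = 0.36). At 12 h the change was 2.12 in experiment 1 and 0.15 and 0.33 in the others. The probe sets of both genes below the filter were not called in the unfiltered fit either: the changes of Klf9 on 93527_at lay between 0.16 and 0.80, and those of Klf17 on 92324_at between −0.19 and 0.30.

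Over the whole course 3 of the 12 probe sets varied between time points by the F test, against 7.3% of all probe sets: Klf6 (adjusted p = 0.00164), Klf13 on 103369_at (adjusted p = 0.0173) and Klf4 (adjusted p = 0.0192). At an unadjusted p below 0.05 there were 5, and the share of all probe sets at that threshold was not counted. With the experiment as a block 9 varied, against 26.4% of all, the further ones being both of Klf3 (adjusted p = 0.00862 and 0.0241), Klf5 (0.0288), both of Klf10 (0.00185 and 0.00506) and the other Klf13 probe set (0.00735). Without experiment 3 the count was 0 and 0.416% of all probe sets varied, and without experiment 2 it was 1, against 1.5% of all. Without the 18 h and 30 h arrays of experiment 1 the count was 3, against 6.88% of all.

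The levels from 6 h to 48 h were also fitted with a straight line beside a 24 h rhythm, to separate slow drift from the change over the first 6 h. Klf4 rose by 1.14 ± 0.20 per day on the log2 scale (adjusted p = 0.00123) and Klf5 fell by 0.55 ± 0.15 per day (adjusted p = 0.0225), that is 1 of 12 rising and 1 of 12 falling, against 2.83% and 3.3% of all probe sets. With each array centred on its median in place of quantile normalization 36.0% of all trend calls were rising, against 46.2% here, and both Klf calls were kept. With the block the brighter Klf13 probe set also rose, by 0.38 ± 0.12 per day (adjusted p = 0.0356), and Klf10 on 99603_g_at fell by 0.50 ± 0.14 per day (adjusted p = 0.0183), against 8.05% rising and 9.02% falling. Klf6, at 0.15 ± 0.09 per day (adjusted p = 0.398), and both Klf3 probe sets, at −0.03 ± 0.11 and 0.01 ± 0.14 per day, did not pass. Without experiment 3 the slope of Klf4 was 0.99 per day (adjusted p = 0.115), and the slope of Klf5 lay between −0.62 and −0.47 per day with any 1 experiment left out (adjusted p between 0.0582 and 0.197). Without the 18 h and 30 h arrays of experiment 1 there were 3 trend calls against 2, with 6.28% of all probe sets called in either direction, since the slope of Klf10 on 99603_g_at passed at −0.56 per day (adjusted p = 0.0302). From 12 h on, the slope of Klf5 was −0.43 per day (adjusted p = 0.234).

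**Figure D3:**
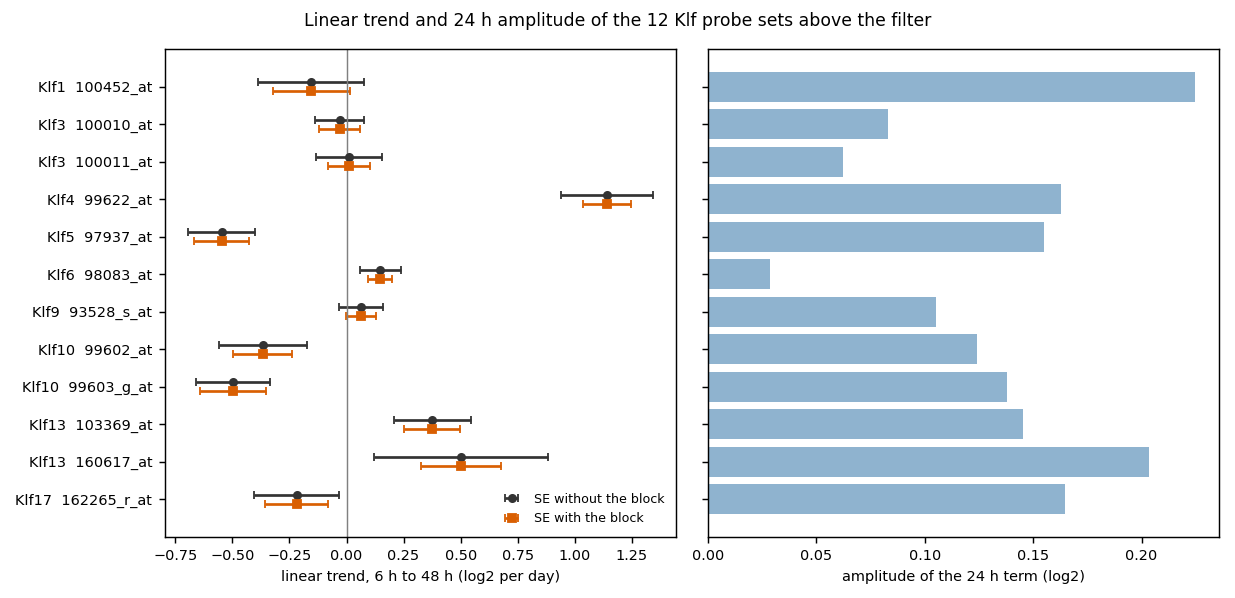
The left panel gives the linear trend from 6 h to 48 h in log2 units per day for the 12 tested Klf probe sets, with bars of 1 SE without and with the experiment as a block, and the right panel gives the amplitude of the 24 h term in log2 units. Klf4 stands out on the left at 1.14 per day and Klf5 at −0.55 per day, and the highest amplitude on the right is 0.22, for Klf1.

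A 24 h rhythm was called in 0 of the 12 Klf probe sets by limma, as in 0 of all 7453, and at an unadjusted p below 0.05 in 0 of the 12, against 3.33% of all. Since the adjusted test called no probe set of any gene, its 0 cannot show that a Klf gene lacks a rhythm. The amplitudes lay between 0.03 for Klf6 and 0.22 for Klf1, with a median of 0.14, against 0.09 over all probe sets. Klf9 and Klf10 had amplitudes of 0.11 on 93528_s_at, and 0.12 and 0.14 on the pair of Klf10. With the experiment as a block, and without the 18 h and 30 h arrays of experiment 1, the count of rhythm calls was again 0.

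At 48 h against 24 h, the same phase 1 day later, 0 of the 12 were called by limma, against 0.0268% of all, and at an unadjusted p below 0.05 there were 0. The block gave 0 calls too, with 0.577% of all called. Without adjustment 1 member passed with the block, and the share of all probe sets that pass without adjustment was not counted. The largest change was that of Klf4, at 0.96 ± 0.49 (adjusted p = 0.9996, and 0.0549 with the block), with 0.69, 0.80 and 1.40 in experiments 1 to 3. The change of Klf6 was 0.26 ± 0.20 and that of Klf13 on 103369_at 0.09 ± 0.46.

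The probe sets of the 6 genes with 2 were compared with each other. For each the difference between the probe sets within an array was tested for change over the 9 time points, by a permutation test with 100000 draws of the time labels within each experiment, adjusted over the 6 pairs. Klf3, Klf9, Klf10, Klf13 and Klf17 gave an adjusted p between 0.859 and 0.902, and Klf4 gave 6e-05, from a permutation p of 1e-05 that is the smallest the draws can give. The Klf4 value is no check of that transcript, because the other Klf4 probe set read near the bottom of the array's range and the difference restates the course of 99622_at. In the Klf9 and Klf17 pairs 1 probe set lay below the filter. A p that misses the threshold does not show that a pair agreed, so the size of the disagreement is given too. The difference between the probe sets moved over a range of 0.23 across the time means for Klf10, 0.47 for Klf3, 0.67 for Klf9, 1.02 for Klf13 and 1.06 for Klf17. Both Klf10 probe sets are annotated with the same source sequence, so they may not be independent readings. Those of Klf3, Klf9, Klf13 and Klf17 have different ones. The changes against 0 h had 1 sign on both probe sets at 8 of 8 later times for Klf3, Klf10 and Klf13, at 7 of 8 for Klf9 and at 5 of 8 for Klf17.

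The dimmer Klf4 probe set, 161185_i_at, had deposited intensities between 0.7 and 15.9 on the 27 arrays, and its mean lay at the 0.169th percentile of all probe sets. Its log2 change was −0.11 ± 0.20 at 48 h, where that of 99622_at was 2.02 ± 0.49. With values below 1 set to 1 and no other pseudocount the adjusted p of the Klf4 pair was 0.172. In every pair the difference shifted between experiments, on a scale whose zero is arbitrary because the probes differ. For Klf13, 103369_at minus 160617_at was 1.93 in experiment 1, −0.29 in experiment 2 and −0.12 in experiment 3. For Klf3, 100011_at minus 100010_at was −0.31, 0.62 and 0.53 in experiments 1 to 3. The brighter minus the dimmer probe set in experiments 1 to 3 was 1.56, 2.88 and 2.81 for Klf9 and 1.64, 3.02 and 2.59 for Klf17. It was 0.28, 0.64 and 0.59 for Klf10 and 7.65, 6.37 and 6.85 for Klf4. Experiment 1 was thus the highest or the lowest in every pair, and what set it apart was not tested.

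**Figure D4:**
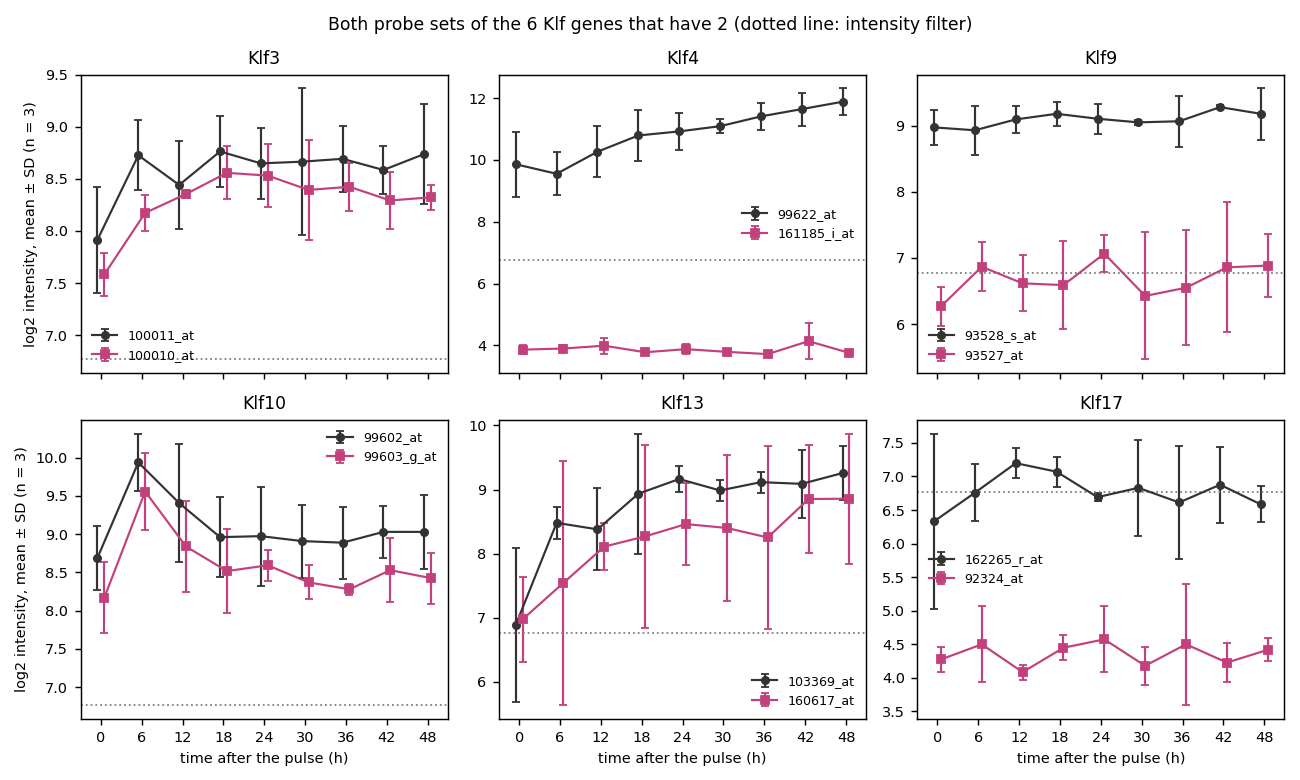
Mean log2 intensity ± SD of 3 arrays against hours after the pulse for both probe sets of the 6 Klf genes that have 2, with a dotted line at the filter level of 6.77. The Klf10 curves run side by side with a top at 6 h, and the lower Klf4 curve lies flat near 3.9 while the upper one climbs.

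For the 3 members called by the F test the most alike genes were sought by Pearson correlation over the 27 arrays after subtracting each experiment's mean, among 5642 genes, each by its brightest probe set. These are descriptions, since arrays of a time point share their culture age and all arrays of an experiment their cells. Klf4 was most like Agtr2, an angiotensin II receptor (r = 0.947), Nfib, a nuclear factor I gene (r = 0.931), and Prss23, a secreted protease (r = 0.930). Among the genes most like Klf6 were the laminin gene Lama4 (r = 0.934) and the imprinted gene Mest (r = 0.919). Klf13 on 103369_at was most like the kinase substrate gene Marcks (r = 0.907), Mest (r = 0.904) and Reck, a membrane inhibitor of metalloproteinases (r = 0.897). Their changes at 48 h against 0 h were 1.94 for Agtr2, 1.26 for Nfib and 0.94 for Prss23. Those of the others were 1.76 for Lama4, 1.09 for Marcks, 2.32 for Mest and 1.42 for Reck.

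Genes that work with or under the family were counted from 4 lists. The Sp factors bind the same GC boxes, and of 2 tested 0 were called at 6 h or 24 h. At 48 h 1 was higher, against 4.67% of all probe sets, Sp3 at 0.52 ± 0.16 (adjusted p = 0.0487). The 48 h change of Sp1 was 0.49 ± 0.24 (adjusted p = 0.262). With the block 2 were higher at 6 h and 1 at 24 h, against 9.97% and 10.6% of all probe sets. Of 12 tested cofactors and regulators of Klf proteins, 0 were called at 6 h and 24 h. At 48 h 1 was lower, against 3.23% of all probe sets, Sin3b, a Sin3 scaffold, at −0.39 ± 0.12 (adjusted p = 0.0402). The median change of this list was 0.09 at 6 h and 0.07 at 48 h, and with the block 3 were higher and 2 lower at 48 h, when 10.7% of all probe sets were higher and 9.07% lower.

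Of 15 tested genes reported as Klf targets, 0 were higher at 6 h, 24 h or 48 h, against 3.7, 4.08 and 4.67% of all probe sets. Of the 15, 1 was lower at 6 h and 2 were lower at 24 h and at 48 h, against 2.39, 2.84 and 3.23% of all. With the block 2 were higher and 5 lower at 6 h, against 9.97% higher and 6.74% lower over all probe sets, and 3 higher and 2 lower at 48 h, against 10.7% and 9.07%. The median change of the list was −0.09 at 6 h and 0.01 at 48 h. Those called without it were the contractile genes Acta2, smooth muscle actin, and Tagln, transgelin, whose smooth muscle expression Klf4 is known to repress. Acta2 changed by −2.61 ± 0.46 at 6 h (adjusted p = 0.000735), −2.40 ± 0.46 at 24 h (adjusted p = 0.00176) and −3.51 ± 0.46 at 48 h (adjusted p = 1.95e-05). The change of Tagln was −0.74 ± 0.35 at 6 h (adjusted p = 0.28, and 0.00362 with the block), −2.13 ± 0.35 at 24 h (adjusted p = 0.00036) and −2.93 ± 0.35 at 48 h (adjusted p = 6.38e-06). From 6 h to 48 h Tagln fell by 0.97 ± 0.18 per day (adjusted p = 0.00152) and Ccnd1, the gene of cyclin D1, rose by 0.76 ± 0.18 per day (adjusted p = 0.00948). Against 0 h Ccnd1 changed by −0.73 ± 0.36 at 6 h (adjusted p = 0.301, and 0.0208 with the block). Its 48 h change was 0.91 ± 0.36 (adjusted p = 0.139, and 0.00339 with the block). Cdkn1a, the cyclin-dependent kinase inhibitor that Klf4 and Klf6 are known to activate, had a change of 0.17 ± 0.25 at 48 h (adjusted p = 0.806).

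Of 5 tested early response genes outside the family, 0 were called at 6 h or 24 h. At 48 h 1 was higher, against 4.67% of all probe sets, Egr1 at 1.07 ± 0.33 (adjusted p = 0.0493). With the block 1 was lower at 6 h, Ier3 at −1.06 (adjusted p = 0.0423), against 6.74% of all probe sets. At 48 h 3 were higher with the block, Egr1, Egr2 and Ier2, against 10.7% of all, and the median of the list was 0.77. Ier3 rose by 0.72 ± 0.20 per day (adjusted p = 0.0283) and Ier2 by 0.56 ± 0.17 per day (adjusted p = 0.0445) from 6 h on, and their changes at 48 h were 0.46 ± 0.48 (adjusted p = 0.703, and 0.42 with the block) and 0.77 ± 0.44 (adjusted p = 0.359, and 0.0426 with the block).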

How the data were processed

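Total RNA of 27 NIH/3T3 samples, 9 time points in 3 experiments, was measured on 1 array each. The authors deposited linear probe set intensities; the algorithm is not given in the sources used. Each array had been scaled before deposit, as its mean after leaving out 2% of the values at each end shows. No detection calls entered, so dim values carry no mark of background, and precision rests on the 3 arrays per time. The limma p-values rest on the spread of the arrays around the fitted values, pooled over all arrays of a fit. For each probe set this spread is drawn toward that of probe sets of like intensity. With the block, differences in level between experiments are taken out of it.

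From the deposited intensities log2(intensity + 12.1) was computed, 12.1 being the 10th percentile of all values, and the arrays were quantile normalized. The added constant makes folds of dim probe sets too small. The array controls and all probe sets whose mean level ranked under the 40th percentile were left out, which kept 7453. Time means were fitted with limma 3.58.1 in R 4.3.3 over all arrays (eBayes with an intensity trend), without a block, with Benjamini-Hochberg adjustment over all probe sets kept and a threshold of 0.05. Trend and rhythm used the 24 arrays from 6 h to 48 h. Members below the filter were fitted in a table without it. Gene symbols came from the platform annotation, and 12 of 12 gene identifiers matched RefSeq. The code was tested on simulated data.

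Arrays that share an experiment deviated together from the time means: over probe sets, r ran from 0.426 to 0.642 for experiment 1, from 0.349 to 0.599 for experiment 2 and from 0.135 to 0.482 for experiment 3. The experiment numbers, which the labels give to the biological replicates, were therefore taken to pair the samples, and the fit with the experiment as a block is given where it changes a call.

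Every member was named. For members called by the F test the 3 most correlated genes were named, apart from 1 of Klf6 that is not reported here, and of each list up to 4 called genes. The members, the lists and the tests were chosen with earlier results of these data known. Alternatives changed the scaling, pseudocount, filter, variance model, block, time points, period and replicates. Leaving out the 18 h and 30 h arrays of experiment 1, and the contrasts between later times of Klf1, Klf4 and Klf5, were chosen after seeing the data.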

Additional observations from a re-analysis of the deposited data

Results flagged for a closer look

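For 3 of the 12 tested Klf probe sets every experiment moved one way at 1 time and the opposite way at another, both against 0 h. The share of all probe sets that did so was not counted, so this number is no result about the family. Some of the moves were very small, such as −0.004 for Klf4 at 6 h in experiment 2. For Klf1 at 30 h the move in experiment 3 was 0.02. The mean change of Klf4 on 99622_at was 2.02 at 48 h and −0.31 at 6 h, that of Klf5 was −0.64 at 36 h and 0.47 at 6 h, and that of Klf1 was −0.48 at 18 h and 0.20 at 30 h. The dim Klf17 probe set 92324_at, below the filter, also moved both ways, with mean changes of −0.19 at 12 h and 0.17 at 18 h, neither of which passed. Of these, the 48 h change of Klf4 passed the test against 0 h. The difference between the 2 times was then tested directly with limma, over all 7453 probe sets. Klf4 was higher at 48 h than at 6 h by 2.33 ± 0.49 (adjusted p = 0.00908, with 3.48% of all probe sets called). The difference for Klf5 was −1.11 ± 0.32 between 36 h and 6 h (adjusted p = 0.0745, with 2.09% called), and with the experiment as a block the adjusted p = 0.00495, with 11.2% called. The difference for Klf1 was −0.68 ± 0.48 between 18 h and 30 h (adjusted p = 1, and 0.818 with the block). These contrasts were chosen after the changes against 0 h were seen.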

How the results depend on the processing

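The direction of every called Klf change and slope was kept under every alternative run. With the experiment as a replicate block, which the pairing of the samples allows, the count of Klf probe sets was 9 against 3 for variation over time, 6 against 3 at 6 h, 5 against 3 at 12 h, 6 against 3 at each time from 18 h to 42 h and 4 against 2 for the linear trend, and it changed no other count by more than 1.5 times. With no intensity filter 1 probe set was called at 12 h, against 3, and the share of all probe sets called was 4.09%, against 8.33%. For the linear trend 1 was called, against 2, with the filter at the 60th percentile and with the fit from 12 h on. Klf5, whose mean level lay at percentile 58.07, was left out by that filter and so was not tested there. The share of all probe sets called under these settings was not counted. With a pseudocount of 1 as a floor 0 gene pairs differed over time, against 1, the Klf4 pair. With 1 experiment left out at a time the counts ranged from 0 to 4 for variation over time and at 6 h, from 0 to 3 at 12 h and 24 h, from 0 to 4 at 18 h, 36 h and 42 h, from 0 to 5 at 30 h and 48 h, and from 0 to 3 for the trend. Each 0 came without experiment 3, and each highest count without experiment 1. Without experiment 3 between 1.46% and 2.11% of all probe sets were called at the later times against 0 h. With all arrays the share lay between 6.09% and 8.33%. For variation over time it was 0.416% without experiment 3, against 7.3%, and for the trend 0.496%, against 6.13%. Without experiment 1 the shares were 4.55% to 7.47% at the later times, 6.72% for variation over time and 9.86% for the trend. The fits with an experiment left out had no block, so level differences between the remaining experiments stayed in the spread. Why the counts fell without experiment 3 was not tested. Without the 18 h and 30 h arrays of experiment 1, 54 of 60 calls and misses of single probe sets were as before. The counts were then 4 against 3 at 6 h and 42 h, 2 against 3 at 12 h and 3 against 2 for the trend. Of all probe sets 6.06% were called at 6 h, against 6.09%, and 8.12% at 12 h, against 8.33%. At 42 h the share was 7.3%, against 7.08%, and for the trend 6.28%, against 6.13%. The rhythm and the 48 h against 24 h counts were 0 under every alternative run. Since no detection calls entered, changes of the 6 probe sets under the filter, those of Klf2, Klf7 and Klf12 and the dimmer ones of Klf4, Klf9 and Klf17, may include background signal.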
